A study of Mus musculus with 6 samples.

Results

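Interferon-stimulated genes were followed in hematopoietic stem cells from mouse bone marrow with floxed Rbfox2, a gene for an RNA-binding regulator of splicing, with or without Vav1-cre. The genes are 46 targets, receptors and factors of type I and gamma interferon. They were listed by name, but with earlier results of these data known, so their shares are descriptive. Of these, 45 could be paired with 1 of the 22969 gene identifiers counted, and all 45 passed the filter on low counts, so that they stood among 12350 genes tested. Mx1 was not analysed here. By role they were 8 GTPases, 22 antiviral effectors and 15 receptors, sensors, factors and regulators.

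Adult C57BL/6 mice with the genotype Vav1-cre; Rbfox2-fl/fl gave 3 libraries, and mice with Rbfox2-fl/fl alone gave 3 control libraries. Both groups carry the floxed alleles, and Vav1-cre, which is active across the blood lineages, is present only in the mutant. About 500 Lin- Sca-1+ c-Kit+ CD150+ CD48- cells were sorted for each library, and Smart-seq2 amplified polyadenylated RNA without molecular identifiers. The 2 libraries control 1 and control 3 were nearly identical (chi-square per degree of freedom 3.44, against at least 156 for any other pair), so their counts were summed and the comparison set 3 mutant-labelled libraries against 2 control samples.

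Interferons are secreted proteins that warn cells of infection. Type I interferons bind the receptor made of IFNAR1 and IFNAR2, whose kinases JAK1 and TYK2 phosphorylate STAT2 among others. STAT2 and IRF9 are parts of the complex ISGF3, which binds the interferon-stimulated response element (ISRE) in promoters, while gamma interferon acts through the gamma-activated site (GAS). In hematopoietic stem cells, interferon is known to end quiescence, and part of the antiviral programme is expressed in stem cells without infection.

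The libraries limit what follows. Mutant-labelled libraries held 23474895 to 35650284 counts, and the controls 47895459 to 55151484. Rbfox2 had 2, 87 and 10 counts in mutant-labelled libraries 1, 2 and 3, and 238, 11 and 250 in controls 1, 2 and 3, so mutant-labelled 2 and control 2 went against their labels and every direction below rests on the labels. Mutant-labelled 1 stood apart from all other samples on the first principal component, and 34.4% of genes tested had under 10 counts in it, against at most 9.51% in any other library. Of the 45 interferon genes, 4 had under 10 counts there (Ifit2, Mx2, Adar and Cmpk2). Xist was read at 120 and 74.0 CPM (counts scaled to the library total) in mutant-labelled 1 and 3 and at no more than 1.02 CPM in the other libraries. The Y-linked Eif2s3y had 0 counts in mutant-labelled 1 and 3 and at least 576 in the others. By these genes mutant-labelled 1 and 3 were female, and mutant-labelled 2 and every control were male. Sex thus differed within the mutant-labelled group and between the groups, and female libraries occurred only under the mutant label. The stem cell list was detected in each sample, with summed levels of 1219 to 1269 CPM in mutant-labelled libraries and 1023 to 1154 CPM in controls. In bulk RNA fewer cells of a type and less RNA per cell cannot be told apart.

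Promoter sequence of the genes whose values are followed most closely is shown first, so that promoter letters of neighbouring genes can be set beside their values. A match is a description of letters and not a binding site. RefSeq promoters (GRCm38.p6, 250 bases before to 50 after the start) were matched for 36 members. Letters in capitals mark the core of an ISRE, TTTC and TTTC parted by any 2 bases and searched on both strands, and TTCNNNGAA, the core of a GAS, which reads the same on both strands. Overlapping copies were counted as separate matches and run together in capitals. Each line runs 5′ to 3′ on the strand of its gene and lies before the annotated start. All are on the plus strand except Isg15.
Ifit1 (chr19:34640773-34640825): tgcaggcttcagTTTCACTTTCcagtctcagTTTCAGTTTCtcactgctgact
Ifit3 (chr19:34583361-34583428): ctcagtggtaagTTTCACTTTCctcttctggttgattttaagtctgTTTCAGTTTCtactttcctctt
Ifit2 (chr19:34550624-34550693): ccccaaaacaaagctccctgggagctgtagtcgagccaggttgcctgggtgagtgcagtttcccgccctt
Igtp (chr11:58199499-58199543): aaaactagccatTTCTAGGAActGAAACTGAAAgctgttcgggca
Irgm2 (chr11:58214890-58214934): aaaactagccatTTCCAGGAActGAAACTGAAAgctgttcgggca
Ifi47 (chr11:49076517-49076586): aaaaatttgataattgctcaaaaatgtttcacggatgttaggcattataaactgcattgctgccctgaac
Isg15 (chr4:156200863-156200908, minus strand): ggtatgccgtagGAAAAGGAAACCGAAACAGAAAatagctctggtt
Ifit1 and Ifit3 each held 2 ISRE cores with the same letters in the same order, the windows of Igtp and Irgm2 differed at 1 of 45 bases, and the windows shown for Ifit2 and Ifi47 held neither core. Further from its start, at -241, the promoter of Ifit2 held a GAS core. The ISRE core was in at least 1 promoter of 19 of 36 members (52.8%), against 3.99% of 27025 genes with promoters of the same length. By role it was in 6 of 7 GTPases, 9 of 18 antiviral effectors and 4 of 11 receptors, sensors, factors and regulators. The GAS core was in 15 of 36 members (41.7%), against 9.55% of these genes. The median log2 fold change was 0.65 for the 19 members with an ISRE core and 0.37 for the 17 without, while it was -0.15 for the 15 members with a GAS core and 1.27 for the 21 without.

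Which interferon genes differ between the groups was asked of each role in turn. No member passed edgeR's quasi-likelihood test adjusted over all genes, and neither did any other gene (0.0% called). At an unadjusted p under 0.05, 7 members were higher in mutant-labelled libraries, 15.6% of those tested against 5.33% of all genes, and 1 was lower, 2.22% against 4.56% of all genes. The higher ones were Ifi47, Ifit1, Oasl2, Ifnar1, Irf7, Irf9 and Usp18, and the lower one was Ifit2. The groups did not overlap for 11 members that were higher (24.4%, against 14.9% of all genes) and 7 that were lower (15.6%, against 17.2% of all genes), together 40.0% of members against 32.0% of all genes. Of the members 26 had a log2 fold change above 0, 57.8%, against 53.5% of all genes. DESeq2 called Irf7 and Irf9 higher and Ifit2 lower at an adjusted p under 0.05. It called 1.15% of 20520 unfiltered genes higher and 1.17% lower. Among the 12350 genes that passed the filter, as all 45 members did, it called 225 higher and 223 lower. Limma-voom called none, with 8 members higher (17.8%, against 6.12% of all genes) and 3 lower (6.67%, against 7.53%) at an unadjusted p under 0.05. Over all 45 members the median log2 fold change, mutant-labelled minus control, was 0.24, and over all genes it was 0.11. The members' median was -0.15 without mutant-labelled 1, -0.16 with a term for the libraries with Xist reads, -0.0043 with upper quartile factors and 0.61 without control 2, so its sign was not stable. Without mutant-labelled 1, 11 members were higher (24.4%, against 11.8% of all genes) and 6 lower (13.3%, against 11.9%) at an unadjusted edgeR p under 0.05. With a term for the libraries with Xist reads 2 were higher (4.44%, against 1.91% of all genes) and 0 lower (against 1.09%).

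**Figure D1:**
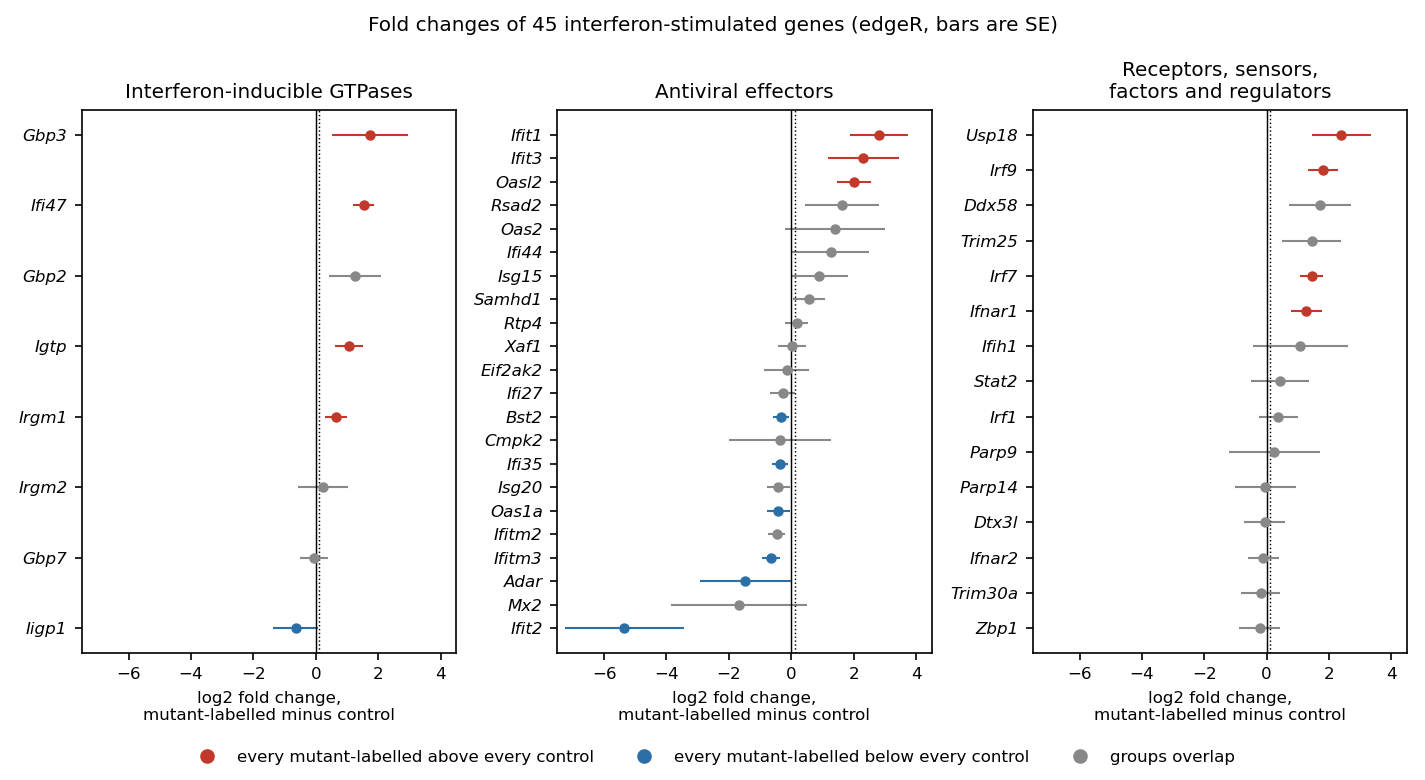
Log2 fold change of each of the 45 members, mutant-labelled minus control (horizontal axis), with its standard error, by role. Red and blue points are members whose 3 mutant-labelled values all lie above or all below both control values, grey points overlap, and the dotted line is the median of all genes, 0.11.

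Of 8 GTPases, 6 lay above control in mutant-labelled libraries (75.0%, against 53.5% of all genes). The median log2 fold change of the GTPases was 0.86. These proteins, immunity-related GTPases and guanylate-binding proteins, attack the vacuoles in which intracellular parasites and bacteria live. The group's median log2 ratio to the control mean was 0.84, 0.92 and 1.03 in mutant-labelled libraries 1, 2 and 3, where that of all genes was -0.52, 0.00 and 0.08. It lay between 0.48 without the summed control 1 and 3 and 1.09 without control 2. No GTPase passed the adjusted edgeR test, and 1 of 8 was higher at an unadjusted p under 0.05 (against 5.33% of all genes). The groups did not overlap for 4 of 8 that were higher (against 14.9% of all genes) and 1 of 8 that was lower (against 17.2%).

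Ifi47, an immunity-related GTPase also called IRG-47, had 270, 240 and 261 CPM in mutant-labelled libraries 1, 2 and 3, against 65.2 CPM in the summed control 1 and 3 and 112 CPM in control 2. All mutant-labelled values were more than 2 times the level of the higher control and lay close together. The fold change was 1.53 on the log2 scale (SE 0.345, edgeR adjusted p = 0.387), and 1.17 to 1.99 when a sample was left out. The 2 control values lay apart, with an SD of 33.3 CPM on a mean of 88.7 CPM. Igtp, or IRGM3, a regulatory GTPase that guards the host's own membranes, had 248, 313 and 317 CPM in mutant-labelled libraries, against 79.3 and 202 CPM in the control samples. Its groups did not overlap, but the controls lay further apart from each other than the mutant-labelled libraries did (log2 1.06, SE 0.444, edgeR adjusted p = 0.513). The log2 fold change was 0.51 without the summed control 1 and 3 and 1.90 without control 2. Irgm1, another regulatory GTPase, which is known to be needed for the maintenance of mouse hematopoietic stem cells, had 109, 96.1 and 111 CPM, against 58.7 and 75.4 CPM in controls. The separation was smaller (log2 0.65, SE 0.363, edgeR adjusted p = 0.671).

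These 3 genes lie on mm10 chromosome 11, Irgm1 (ENSMUSG00000046879) from 48861968 to 48871683 on the minus strand, Ifi47 (ENSMUSG00000078920) from 49076587 to 49096974 and Igtp (ENSMUSG00000078853) from 58199556 to 58207591. Each encodes a protein. Irgm2, the neighbour that shares the promoter letters of Igtp, overlaps it and shares 162 exonic bases, so reads there cannot be assigned to one of them. It had 68.6, 24.0 and 15.95 CPM in mutant-labelled libraries, against 28.4 and 33.2 CPM in controls. It was thus above both controls in mutant-labelled 1 and below both in 2 and 3 (log2 0.23, SE 0.813), a pattern that Igtp did not have.

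The guanylate-binding proteins were uneven. Gbp3 had 7.33, 14.5 and 7.33 CPM in mutant-labelled libraries, against 3.89 and 1.93 CPM in controls (log2 1.74, SE 1.21, edgeR adjusted p = 0.768). Gbp2 had 19.1, 55.7 and 72.5 CPM, against 11.7 and 29.4 CPM, and mutant-labelled 1 lay between the controls. Gbp7 had 110, 56.3 and 89.1 CPM, against 73.2 and 104 CPM, and showed no separation (log2 -0.06, SE 0.443). Iigp1, an effector GTPase that coats parasite vacuoles, was the member of the family that lay lower in every mutant-labelled library, at 15.6, 17.0 and 26.4 CPM, against 30.0 and 31.6 CPM (log2 -0.65, SE 0.715, edgeR adjusted p = 0.897). Per kilobase of the longest annotated transcript, Igtp and Ifi47 were the most abundant GTPases, each at 145 CPM per kilobase in mutant-labelled libraries, against 69.4 for Igtp and 50.03 for Ifi47 in controls.

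**Figure D2:**
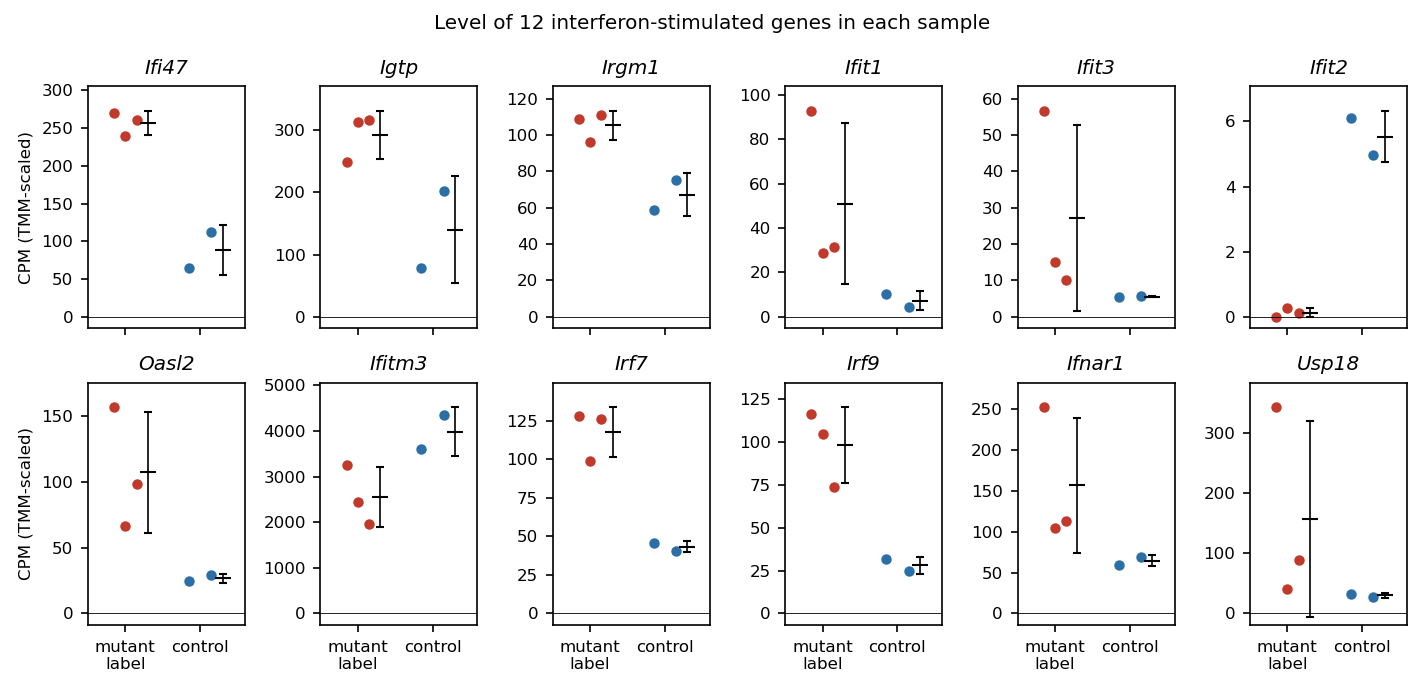
Level of 12 members in each sample, in CPM scaled by TMM factors (vertical axes, linear). Red points are mutant-labelled libraries 1, 2 and 3 from left to right, blue points are the summed control 1 and 3 and then control 2, and black marks are the mean and SD (n = 3 and n = 2). Ifi47, Irf7 and Irf9 separate, though the controls of Ifi47 lie apart, and Usp18, Ifit1 and Ifit3 are led by mutant-labelled 1.

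Antiviral effectors did not move one way. Of 22 tested, 10 lay above control (45.5%, against 53.5% of all genes) and 12 below. The groups did not overlap for 6 lower (27.3%, against 17.2% of all genes) and 3 higher (13.6%, against 14.9%). The median log2 fold change was -0.21, and it ranged from -0.60 with upper quartile factors to 0.16 with a transcript length correction. By library the median log2 ratio was 0.12, -0.23 and -0.25. The group held both the highest and the lowest fold change of the 45 members, and those came from neighbours in 1 gene cluster, Ifit1 and Ifit2.

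The IFIT proteins bind viral RNA and block its translation, and their genes stand side by side on mm10 chromosome 19, Ifit2 (ENSMUSG00000045932) from 34550694 to 34576419, Ifit3 (ENSMUSG00000074896) from 34583531 to 34588731 and Ifit1 (ENSMUSG00000034459) from 34640871 to 34650009, all on the plus strand. Ifit1 had 93.0, 28.7 and 31.4 CPM in mutant-labelled libraries 1, 2 and 3, against 10.3 CPM in the summed control 1 and 3 and 4.24 CPM in control 2. Its lowest mutant-labelled value was above both controls (log2 2.81, SE 0.935, edgeR adjusted p = 0.415), and the log2 fold change was 2.04 without mutant-labelled 1 and 3.55 without the summed control 1 and 3. Ifit3 had 56.6, 14.98 and 10.1 CPM, against 5.36 and 5.59 CPM, also highest in mutant-labelled 1, with an SD of mutant-labelled values wider than the difference of the means (log2 2.31, SE 1.14, edgeR adjusted p = 0.599), and its log2 fold change was 1.18 without mutant-labelled 1. Reads of Ifit3 may be shared with its near-identical copy Ifit3b, which had 6.93, 2.10 and 1.67 CPM in mutant-labelled libraries, against 2.05 and 1.89 CPM in controls.

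Ifit2 went the other way and was almost unread in mutant-labelled libraries. It had 0, 10 and 5 counts in mutant-labelled libraries 1, 2 and 3, against 329, 239 and 304 counts in controls 1, 2 and 3. On the scaled level this was 0, 0.260 and 0.129 CPM, against 6.09 and 4.97 CPM in the control samples, and a count of 0 in mutant-labelled 1 allows up to 0.152 CPM by a floor of 3 counts. Its log2 difference was -5.35 with SE 1.91 (edgeR adjusted p = 0.454), and DESeq2 called the gene at an adjusted p = 0.00066. It was -6.30 without mutant-labelled 2 and lay between that value and -4.40 over the 15 alternatives that could test it.

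As a share of the counts of the 3 genes, a measure chosen after their values were seen, Ifit2 took 0% (95% exact binomial interval 0 to 0.125%), 0.591% (0.284 to 1.08%) and 0.309% (0.100 to 0.720%) in mutant-labelled libraries 1, 2 and 3. In controls 1, 2 and 3 it took 29.5% (26.8 to 32.3%), 33.6% (30.1 to 37.2%) and 26.6% (24.1 to 29.3%). The intervals cover counting error only, since PCR copies are not independent molecules. The share needs no scaling between libraries.

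**Figure D3:**
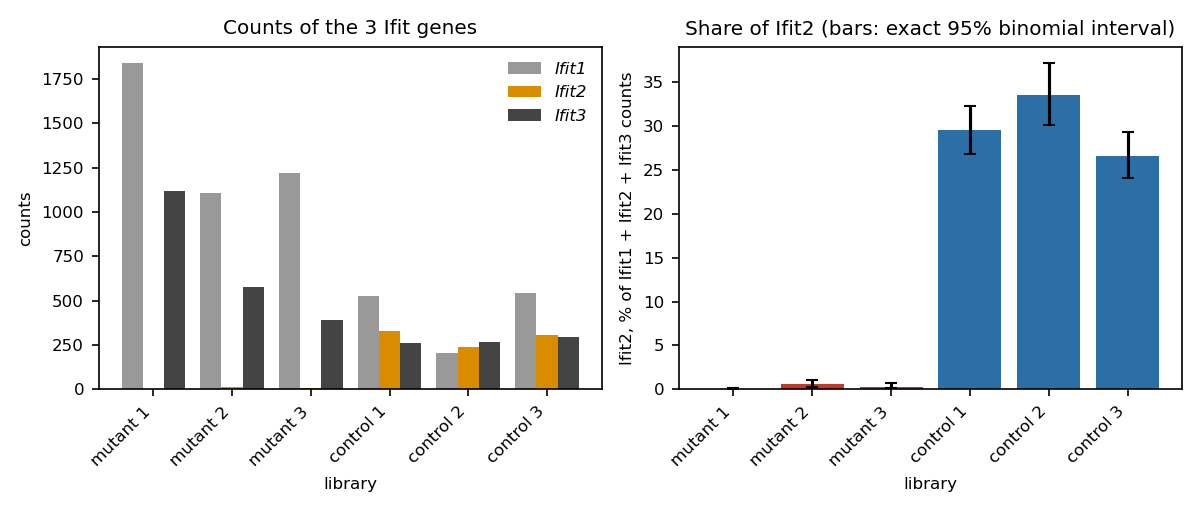
Left, counts of Ifit1, Ifit2 and Ifit3 in each library (vertical axis). Right, Ifit2 as a percentage of the counts of the 3 genes, with exact 95% binomial intervals; the 3 mutant-labelled libraries lie at 0.591% or less and the 3 controls at 26.6% or more.

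Oasl2, a member of the oligoadenylate synthetase family with ubiquitin-like domains, had the smallest edgeR p of the effectors. It had 156, 66.2 and 98.2 CPM in mutant-labelled libraries, against 24.3 and 28.9 CPM in controls, each mutant-labelled value more than 2 times the level of either control (log2 2.01, SE 0.536, edgeR adjusted p = 0.387). Its relative Oas1a, which makes the 2-5A that activates RNase L, lay the other way, at 76.1, 135 and 137 CPM, against 149 and 160 CPM (log2 -0.41, SE 0.376, edgeR adjusted p = 0.86). Reads of Oas1a may be split with the similar gene Oas1g, which was also lower in every mutant-labelled library. Oas2 was scarce, at 5.82, 1.45 and 6.48 CPM, against 3.01 and 0.458 CPM.

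Values of 4 abundant effectors were below or near those of the controls, and none had an unadjusted p under 0.05 in the main edgeR fit. This depended on the fit. The unadjusted edgeR p of Ifitm3 and Ifitm2 was 0.0020 and 0.0065 with upper quartile factors, where Ifi35 had 0.019 and Bst2 0.071. It was 0.0076 and 0.030 for Ifitm3 and Ifitm2 without mutant-labelled 1, but 0.136 and 0.258 with DESeq2 size factors in edgeR. Ifitm3, a membrane protein that blocks virus entry by fusion, was the most abundant member per kilobase and had 3255, 2436 and 1962 CPM in mutant-labelled libraries, against 3603 and 4359 CPM in controls (log2 -0.64, SE 0.281, edgeR adjusted p = 0.535). Ifitm2, its paralogue, had 2546, 2020 and 1624 CPM, against 2483 and 3202 CPM, and mutant-labelled 1 reached between the controls (log2 -0.46, SE 0.274). Bst2, or tetherin, which holds budding virions on the cell surface, had 182, 224 and 228 CPM, against 272 and 257 CPM (log2 -0.32, SE 0.259). Ifi35, a scaffold protein of interferon signalling, had 378, 370 and 263 CPM, against 441 and 422 CPM (log2 -0.36, SE 0.263). With a correction for transcript length the direction of 3 of these turned, to 0.07 for Ifitm3, 0.27 for Ifitm2 and 0.40 for Bst2, all short transcripts of 655 to 792 bases. Ifi27 and Isg20, an exonuclease, were as abundant per kilobase as Bst2 and Ifi35, overlapped between the groups and had log2 fold changes of -0.28 and -0.41.

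Several effectors were set by mutant-labelled 1. Isg15, the ubiquitin-like modifier whose promoter holds 3 overlapping ISRE cores, had 88.8, 28.2 and 14.2 CPM in mutant-labelled libraries 1, 2 and 3, against 23.0 and 23.7 CPM in controls, so mutant-labelled 1 was far above, 2 near and 3 below them. Ifi44 had 279, 26.9 and 19.6 CPM, against 63.0 and 27.1 CPM, and only mutant-labelled 1 exceeded both controls. Eif2ak2, the kinase PKR that stops translation on double-stranded RNA, had 101, 38.7 and 22.3 CPM, against 61.5 and 58.0 CPM, with mutant-labelled 1 above and the other two below.

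Others had the opposite order. Rsad2, or viperin, had 3.69, 38.4 and 36.6 CPM in mutant-labelled libraries 1, 2 and 3, against 8.87 and 8.15 CPM in controls. Its values were far above both controls in mutant-labelled 2 and 3 and below control in 1 (log2 1.62, SE 1.19). Cmpk2, a mitochondrial nucleotide kinase whose gene neighbours Rsad2, had 0.303, 6.72 and 3.52 CPM, against 2.02 and 6.99 CPM. Adar, which edits adenosine to inosine in double-stranded RNA, had 0.303, 12.9 and 25.8 CPM, against 40.2 and 31.8 CPM, and was lower in every mutant-labelled library (log2 -1.47, SE 1.45, edgeR adjusted p = 0.881), with a log2 fold change of -2.45 without mutant-labelled 3. Part of the exons of Adar overlap Chrnb2 on the other strand, and these counts keep no strand.

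**Figure D4:**
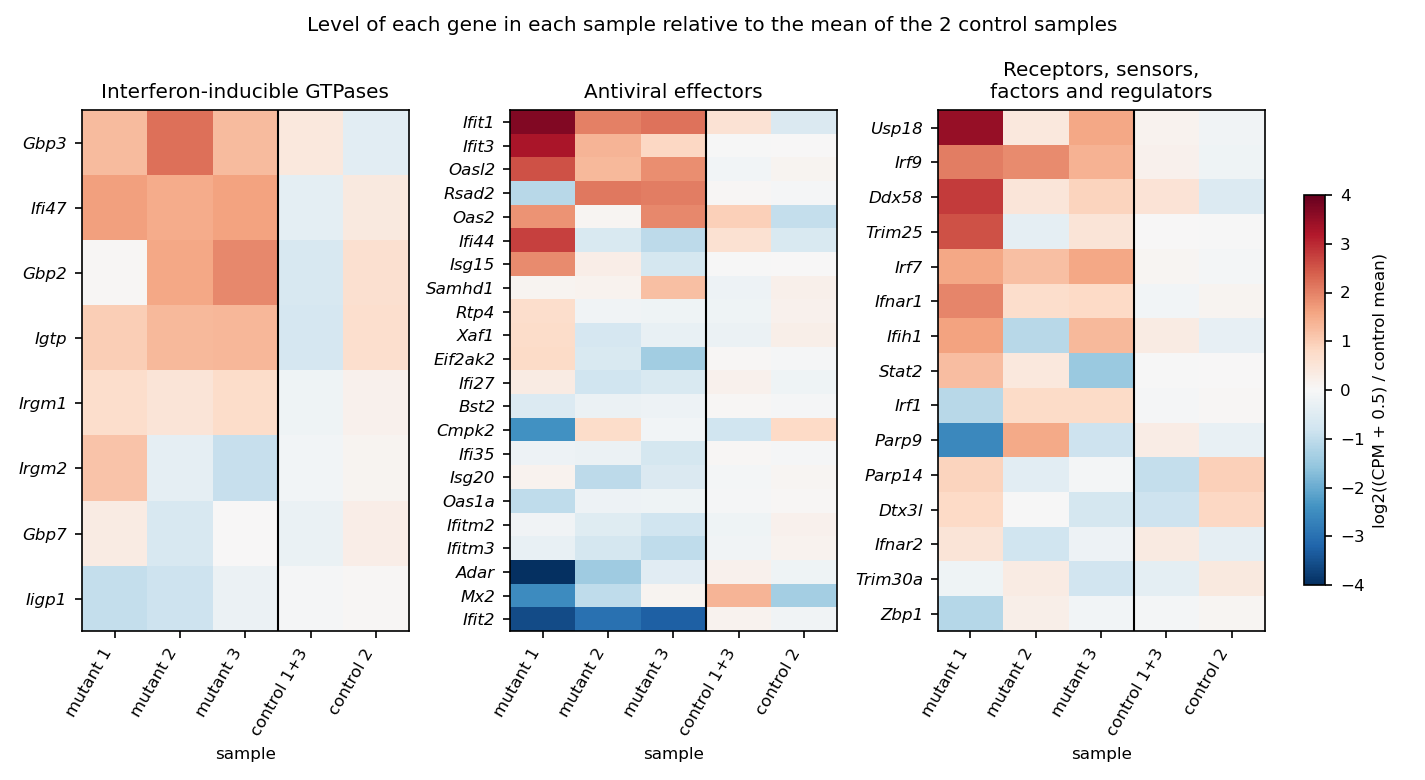
Log2 of (CPM + 0.5) minus its mean over the 2 control samples, for each member (rows, by role) and sample (columns), with colours ending at 4 and -4. Ifit1, Oasl2, Irf9, Irf7 and Ifi47 are red in all 3 mutant-labelled libraries and Ifit2 is blue in all 3, while Rsad2, Irf1 and Parp9 are blue in mutant-labelled 1.

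The remaining effectors overlapped between the groups. Rtp4, Xaf1 and Samhd1, which degrades nucleotides that viruses need, had log2 fold changes of 0.18, 0.02 and 0.57. Mx2 belongs to the dynamin-like antiviral GTPases, but the gene is annotated as a polymorphic pseudogene. It had 0, 0.909 and 2.55 CPM in mutant-labelled libraries, against 6.80 and 0.603 CPM in controls. The 2 controls differed more from each other than the group means did.

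Among receptors, sensors, factors and regulators, 10 of 15 lay above control (66.7%, against 53.5% of all genes). The median log2 fold change was 0.43 and stayed above 0 in all 16 alternatives (0.11 to 0.99). The median log2 ratio was 1.24, 0.41 and 0.53 in mutant-labelled libraries 1, 2 and 3. The groups did not overlap for 4 members, all higher (26.7%, against 14.9% of all genes). These 4 were also those with an unadjusted edgeR p under 0.05 (26.7%, against 5.33% higher over all genes).

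The factors with the tightest separation were Irf7 and Irf9. Irf9, the DNA-binding subunit of ISGF3, had 116, 104 and 73.5 CPM in mutant-labelled libraries, against 31.5 and 24.6 CPM in controls. The lowest mutant-labelled value was more than 2 times the level of the higher control (log2 1.81, SE 0.468, edgeR adjusted p = 0.387, DESeq2 adjusted p = 0.0248). Irf7, which amplifies the production of type I interferons, had 128, 99.3 and 126 CPM, against 45.9 and 40.9 CPM (log2 1.44, SE 0.379, edgeR adjusted p = 0.387, DESeq2 adjusted p = 0.0258). In all alternatives the log2 fold change of Irf9 stayed between 1.45 and 1.96, and that of Irf7 between 1.10 and 1.53. Irf9 (ENSMUSG00000002325) lies on mm10 chromosome 14 from 55603571 to 55610030 on the plus strand and shares 123 exonic bases with Rnf31, and Irf7 (ENSMUSG00000025498) lies on chromosome 7 from 141262706 to 141266481 on the minus strand.

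Stat2 and Irf1 did not separate in this way. Stat2 had 55.8, 31.4 and 8.10 CPM in mutant-labelled libraries 1, 2 and 3, against 23.2 and 24.0 CPM in controls, so that mutant-labelled 1 and 2 lay above and 3 below (log2 0.43, SE 0.929). Irf1, a factor induced by gamma interferon, had 32.8, 119 and 121 CPM, against 68.9 and 72.3 CPM, with mutant-labelled 1 below and the other two above (log2 0.37, SE 0.623).

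The 2 receptor chains differed. Ifnar1 had 252, 105 and 113 CPM in mutant-labelled libraries, against 59.7 and 69.5 CPM in controls, and each mutant-labelled value was above both controls (log2 1.28, SE 0.505, edgeR adjusted p = 0.487), and the log2 fold change was 0.74 without mutant-labelled 1. Ifnar2 had 138, 55.6 and 84.2 CPM, against 124 and 75.8 CPM, and overlapped (log2 -0.11, SE 0.504). Per kilobase, Ifnar1 averaged 40.1 CPM per kilobase in mutant-labelled libraries, against 16.5 in controls, and Ifnar2 averaged 30.4, against 32.8. Usp18, a protease that removes ISG15 and blocks signalling at IFNAR2, had 342, 39.8 and 88.5 CPM, against 32.9 and 26.9 CPM. The groups did not overlap, but mutant-labelled 2 lay just above the higher control (log2 2.39, SE 0.949, edgeR adjusted p = 0.488), and the log2 fold change was 1.08 without mutant-labelled 1 and 0.41 with a term for the libraries with Xist reads.

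The sensors of viral RNA were also led by mutant-labelled 1. Ddx58, which encodes RIG-I, had 90.4, 17.9 and 23.5 CPM, against 18.5 and 8.42 CPM in controls (log2 1.70, SE 0.996), and Trim25, the ubiquitin ligase that activates it, had 162, 20.9 and 38.9 CPM, against 27.5 and 26.5 CPM (log2 1.45, SE 0.945). In both, mutant-labelled 2 was at or below the higher control. Ifih1, which encodes MDA5, was scarce, at 8.24, 0.831 and 6.66 CPM, against 3.17 and 1.79 CPM. Zbp1, a sensor of Z-form nucleic acids, had 17.7, 47.4 and 37.0 CPM, against 38.0 and 41.7 CPM. Parp9 had 1.16, 27.7 and 5.04 CPM in mutant-labelled libraries, against 11.6 and 7.53 CPM, while Dtx3l, the ubiquitin ligase that binds PARP9 and whose gene starts opposite to it, had 141, 80.2 and 49.1 CPM, against 45.3 and 143 CPM. Parp9 was highest in mutant-labelled 2, and Dtx3l in mutant-labelled 1 and control 2. Their genes share 458 exonic bases on opposite strands. Parp14 and Trim30a had log2 fold changes of -0.04 and -0.19.

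The order of libraries differed between members. Of 45 members, 27 were highest in mutant-labelled 1 among the 3 mutant-labelled libraries, 7 in 2 and 11 in 3, while 14, 17 and 14 were lowest in 1, 2 and 3. Of all 12350 genes, 4476 were highest and 6392 lowest in mutant-labelled 1. Mutant-labelled 1 held 26 members above both control samples (57.8%, against 36.9% of all genes) and 13 below both (28.9%, against 51.8% of all genes). Mutant-labelled 2 held 18 above and 18 below (40.0% each, against 39.6% and 40.3% of all genes), and mutant-labelled 3 held 19 above and 20 below (42.2% and 44.4%, against 40.7% and 38.6% of all genes), so these 2 libraries were near the share of all genes.

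**Figure D5:**
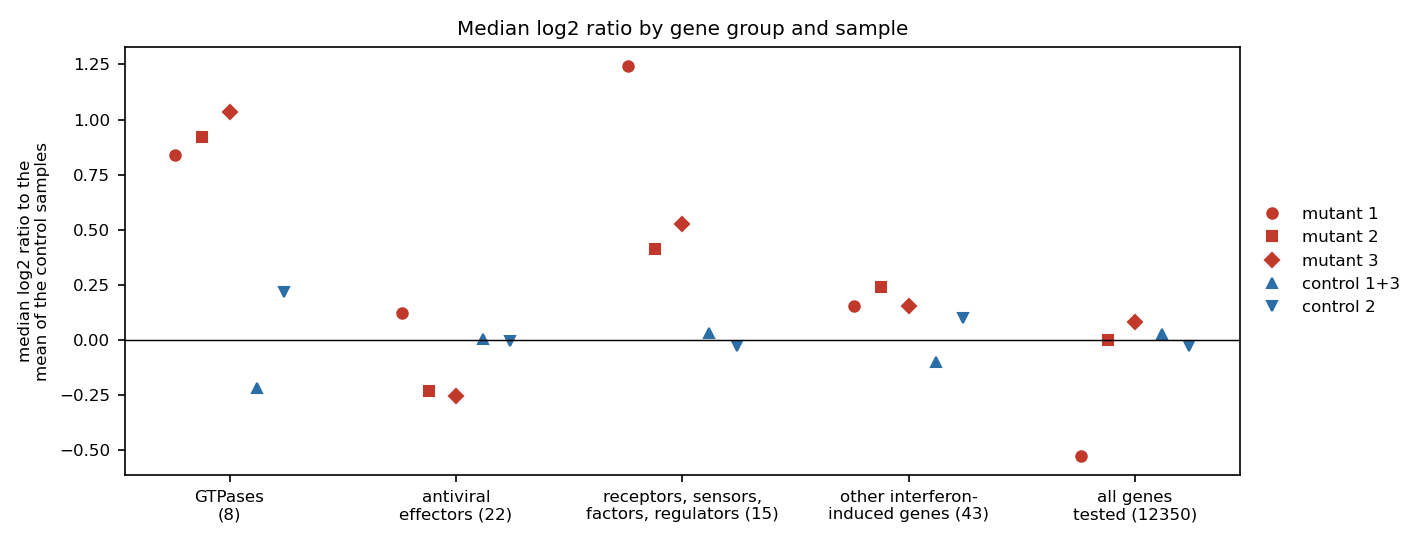
Median log2 ratio to the mean of the 2 control samples (vertical axis) in each sample, by gene group. The GTPases lie between 0.84 and 1.03 in the 3 mutant-labelled libraries, antiviral effectors between -0.25 and 0.12, and mutant-labelled 1 is low over all genes, at -0.52.

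The other genes of the pathway came from 4 lists. No interferon gene had more than 2 counts in any library over the 8 ligand genes listed, so none was tested. At an unadjusted edgeR p under 0.05, 0 of 17 tested receptors, kinases and inhibitors were lower (against 4.56% of all genes). At this threshold 3 were higher (17.6%, against 5.33%). The leading one was Ptpn6, the phosphatase SHP-1 that dampens cytokine signalling, with 359, 413 and 377 CPM in mutant-labelled libraries, against 231 and 170 CPM in controls (log2 0.93, SE 0.266, edgeR adjusted p = 0.387). Ifngr1, the ligand-binding chain of the gamma interferon receptor, had 89.3, 211 and 170 CPM, against 61.1 and 71.2 CPM (log2 1.25, SE 0.462, edgeR adjusted p = 0.467). Its partner Ifngr2 had 0.101, 29.3 and 34.6 CPM, against 25.04 and 33.5 CPM, and was lost from mutant-labelled 1 alone. The kinases Jak1 (log2 -0.18, SE 0.494) and Tyk2 (log2 0.33, SE 1.47) overlapped between the groups.

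Of 11 tested genes of nucleic acid sensing, 0 had an unadjusted edgeR p under 0.05, against 5.33% higher and 4.56% lower over all genes. The smallest p was that of Traf3, an adaptor ligase upstream of interferon production, with 80.1, 10.7 and 9.70 CPM, against 7.94 and 3.08 CPM (log2 2.60, SE 1.34). Of 43 other interferon-induced genes tested, 8 were higher at an unadjusted edgeR p under 0.05 (18.6%, against 5.33% of all genes). At this threshold 3 were lower (6.98%, against 4.56%). The median log2 fold change was 0.64, against 0.11 over all genes. The groups did not overlap for 14 higher (32.6%, against 14.9% of all genes) and 9 lower (20.9%, against 17.2%). Tor3a, a torsin ATPase of the endoplasmic reticulum, had 159, 164 and 135 CPM in mutant-labelled libraries, against 42.1 and 42.2 CPM in controls (log2 1.86, SE 0.349, edgeR adjusted p = 0.387, DESeq2 adjusted p = 0.000524). Tgtp1 and Tgtp2, near-identical GTPases of the same family as Ifi47 and named here after their values were seen, had log2 fold changes of 1.58 (SE 0.393) and 1.70 (SE 0.441), and their reads cannot be assigned to one of them with certainty. The 3 lower ones, named likewise, were Trim21, a cytosolic antibody receptor and ubiquitin ligase, Ifitm1, a relative of Ifitm3, and Psmb9, a subunit of the immunoproteasome. Trim21 had 2, 0 and 1 counts in mutant-labelled libraries 1, 2 and 3, against 64, 77 and 80 counts in controls 1, 2 and 3, and DESeq2 called it lower at an adjusted p = 0.00614. Ifitm1 had a log2 fold change of -0.73 (SE 0.272) and Psmb9 one of -0.74 (SE 0.277).

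Marker genes of other cells were examined beside these results. Of the T and NK cell markers, 2 of 9 with an identifier passed the filter (Nkg7 and Klrb1c), the defining Cd3e, Cd3d and Cd3g were at no more than 0.0515 CPM in any sample, and the summed level was 98.4 to 199 CPM in mutant-labelled libraries and 86.6 to 118 CPM in controls. For plasmacytoid dendritic cells, a main source of type I interferon, 2 of 6 passed (Bst2 and Tcf4), Siglech was at no more than 0.0519 CPM, and the sum was 391.6 to 617 CPM in mutant-labelled libraries and 366 to 369 CPM in controls. Bst2, itself an interferon member here, had a log2 fold change of -0.32 and Tcf4 one of 1.46, so they went opposite ways. For monocytes and macrophages, 5 of 8 passed, led by Lyz2, Csf1r was at no more than 0.364 CPM, and the sum was 1194 to 1482 CPM in mutant-labelled libraries and 1573 to 2093 CPM in controls. The summed granulocyte and erythroid markers were highest in mutant-labelled 1, at 87.2 and 407 CPM, against at most 23.2 and 140 CPM in the controls. The granulocyte sum was 19.0 and 15.8 CPM in mutant-labelled 2 and 3, below both controls, and its member Elane had 1, 0 and 0 counts in mutant-labelled libraries 1, 2 and 3, against 132, 64 and 165 counts in controls 1, 2 and 3 (DESeq2 adjusted p = 0.000967). The erythroid sum was 44.3 and 133 CPM in mutant-labelled 2 and 3. Of the B cell markers 1 of 6 passed (Cd79b), with a sum of 127 to 212 CPM in mutant-labelled libraries and 226 to 316 CPM in controls. The 5 megakaryocyte markers all passed and summed to 52.2 to 220 CPM in mutant-labelled libraries and 277 to 306 CPM in controls. The part of these markers in the results was not tested. Ly6a, the Sca-1 gene of the sorting gate and itself interferon-induced, had 391.8, 311 and 363 CPM in mutant-labelled libraries, against 645 and 875 CPM in controls (log2 -1.10, SE 0.251, edgeR adjusted p = 0.387), and is named here after its values were seen. Of the 5 tested markers of the gate, Ly6a alone lay below control and 4 lay above. Their median log2 fold change was 0.68.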

How the data were processed

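The authors deposited raw counts for each gene in 6 libraries. Trimmomatic 0.39, featureCounts, DESeq2 1.36.0 and build mm10 are named, without roles, per the submitters' processing notes. Not given in the sources used here are the aligner, how multiply mapped reads were handled, the strand setting and the annotation, so near-identical or overlapping genes have uncertain counts. The 134 rows of 60 repeated identifiers (0.449% of counts) were summed, and symbols were matched for 22831 of 22969 identifiers. Coordinates and transcript lengths came from GENCODE M21 of the same build, and promoters from RefSeq.

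Control 1 and 3 were summed. Counts were tested over all genes with edgeR 4.0.16 in R 4.3.3 (filterByExpr with a minimum count of 10 and total of 15, TMM, glmQLFit and glmQLFTest, two-sided, Benjamini-Hochberg, threshold 0.05). Standard errors were the size of the log2 change over the root of F, and CPM were scaled by TMM factors. Per-library ratios used a prior count of 2. DESeq2 1.42.0 was run on the unfiltered counts and limma 3.58.1 on the filtered ones. Sample titles give a mouse and a replicate number but do not say that each library came from a separate mouse. The tests see the variation among 5 samples and nothing more.

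The members, lists and roles were chosen with earlier results of these data known. Values per sample are given for members with an unadjusted p under 0.05, without overlap, among the 2 most abundant of each role, or of the receptor and factor genes, and for others where a sentence names one. Alternatives were another scaling, filter, tool, library set, replicate block, Xist term, and length or GC correction. A result for 1 gene of the pathway lists is not reported here.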

Additional observations from a re-analysis of the deposited data

How the results depend on the processing

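No gene, member or not, passed the adjusted edgeR or limma-voom test in any of the alternatives, which left out each sample, kept 6 separate libraries or changed scaling, filter or terms. DESeq2 called 477 genes and 3 members, Ifit2, Irf7 and Irf9. At an unadjusted p under 0.05 edgeR counted 2 to 11 members higher and 0 to 6 lower over the alternatives, with 134 to 1457 and 135 to 1467 over all genes. The GTPase median of 0.86 was 1.01 with 6 separate libraries, 0.52 with upper quartile factors, 0.70 with no filter, 0.75 with a stricter filter, 1.03 with limma-voom, 0.71 with a length correction, and 0.48 to 1.09 when a sample was left out, with 0.72 the lowest when that was a mutant-labelled library. The replicate numbers do not pair the libraries (correlations of deviations -0.0423, -0.00892 and 0.0491), and with the replicate block the GTPase median was 1.08, with 8 members higher (17.8%, against 5.64% of all genes) and 1 lower (2.22%, against 5.46%) by unadjusted p. The effector median of -0.21 was -0.60 with upper quartile factors, 0.16 with a length correction, and -0.35 to 0.053 with a sample left out, and the median of receptors, sensors, factors and regulators was 0.42 to 0.99 with a sample left out. Upper quartile factors gave a median of all genes of -0.20 and limma-voom one of -0.32, where it was 0.11. Of single members, Stat2 turned to -0.0043 with upper quartile factors, -0.21 with limma-voom and -0.26 without mutant-labelled 1, and reached 0.87 without mutant-labelled 3. Ifnar2 was -0.53 without mutant-labelled 1 and turned to 0.14 without mutant-labelled 2 and 0.25 without the summed control 1 and 3. Bst2, Ifitm2 and Ifitm3 turned to 0.40, 0.27 and 0.073 with a length correction. The causes were not tested. The stricter filter removed Ifit2, so it has no value there. Fits without a control sample leave 1 control, whose spread is assumed to be that of the other group.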
